A study of Mus musculus with 3 samples.

Results

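The cells described here were brain microglia with high transcript counts of 5 immediate early genes, Fos, Fosb, Egr1, Klf2 and Klf4. There were 2533 such cells among 10923 eligible microglia and 18340 cell barcodes in all. They were chosen by the measured counts of those 5 genes, so the levels of these genes in them are a description and not a finding. A cell was eligible with more than 200 and at most 8000 genes, at most 10% mitochondrial UMIs (unique molecular identifiers, each standing for 1 captured transcript) and at least 2000 but under 12000 UMIs. It also had to hold fewer than 5 UMIs of the border macrophage genes Mrc1, Ms4a7, Cd163, Lyve1 and Cbr2 together, fewer than 5 of the monocyte genes Plac8, Ly6c2 and Chil3, and fewer than 5 of the chemokines Ccl3 and Ccl4. An eligible cell was a member when the 5 genes summed to at least 5 UMIs and at least 15 per 10000 UMIs of that cell. This sum per 10000 is called the score. Members were set against low cells of the same library, which had a score of at most 3.

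Microglia of 3 genotypes were profiled, with 1 library per genotype from mice aged 8 weeks. The control animals were wild type. The hCD33M and hCD33m animals carried a cDNA of the long or the short isoform of human CD33 in the Rosa26 locus. It stood under the CAG promoter and behind a floxed stop cassette (Rosa26-Stop fl/fl) that Cx3cr1Cre removes. The hCD33m line came from 1 embryonic stem cell clone. In the study the long isoform repressed phagocytosis, and the short one, which lacks the domain that binds sialic acid, enhanced it. Per the study each library pooled a pair of mice, microglia were sorted by CD11b, CD45 and Cx3cr1, with the CD45 gate given as CD45low in its results and as CD45+ in its methods, and all brains were handled ice-cold with blockers of transcription (actinomycin D, triptolide) and of translation (anisomycin). For other experiments of the study the controls are given as carriers of Cx3cr1Cre without a transgene, but the account of the single-cell experiment does not state it. Human CD33 transcripts were not analysed here. The study also reports another independent single-cell experiment, not analysed here, with genes of its early gene cluster raised in hCD33m microglia. By in situ hybridization it found a higher density of Fos-positive microglia in hCD33m brains than in wild type, and only a trend for Klf2. The label of the hCD33m library is female, whereas the study states male mice: this library held 0 UMIs of Xist and 94.9 CPM (UMIs of a gene per 1000000 UMIs) of the Y-linked Ddx3y, against 95.3 and 105 CPM of Ddx3y in control and hCD33M. With 1 library per genotype, genotype cannot be told apart from mice, isolation, sex label or library. No p-value is given, and all intervals are 95% intervals for counting error only.

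Immediate early genes are transcribed within minutes of a signal, without new protein synthesis, and their mRNAs are short-lived. Fos and Fosb encode partners of Jun proteins in the AP-1 transcription factor, Egr1 is a zinc-finger transcription factor downstream of MAP kinases, and Klf2 and Klf4 are Kruppel-like zinc-finger factors that restrain inflammatory genes in myeloid and endothelial cells. In microglia such genes are known to respond to signals in the brain and also to tissue dissociation.

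The member share differed widely among the libraries. In control, 59 of 3566 eligible cells were members (1.65%, Clopper-Pearson interval 1.26% to 2.13%). In hCD33M it was 592 of 3300 (17.9%, 16.6% to 19.3%), and in hCD33m 1882 of 4057 (46.4%, 44.8% to 47.9%). The intervals do not overlap, but they leave out the spread between mice. Low cells ran the opposite way, with 2506 in control, 1052 in hCD33M and 634 in hCD33m. The whole distribution was shifted and not only its upper end: eligible cells had median scores of 0, 5.99 and 13.8 in the same order of libraries. No UMI of any of the 5 genes was found in 50.7% of eligible control cells, 19.2% of hCD33M cells and 9.0% of hCD33m cells.

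**Figure D1:**
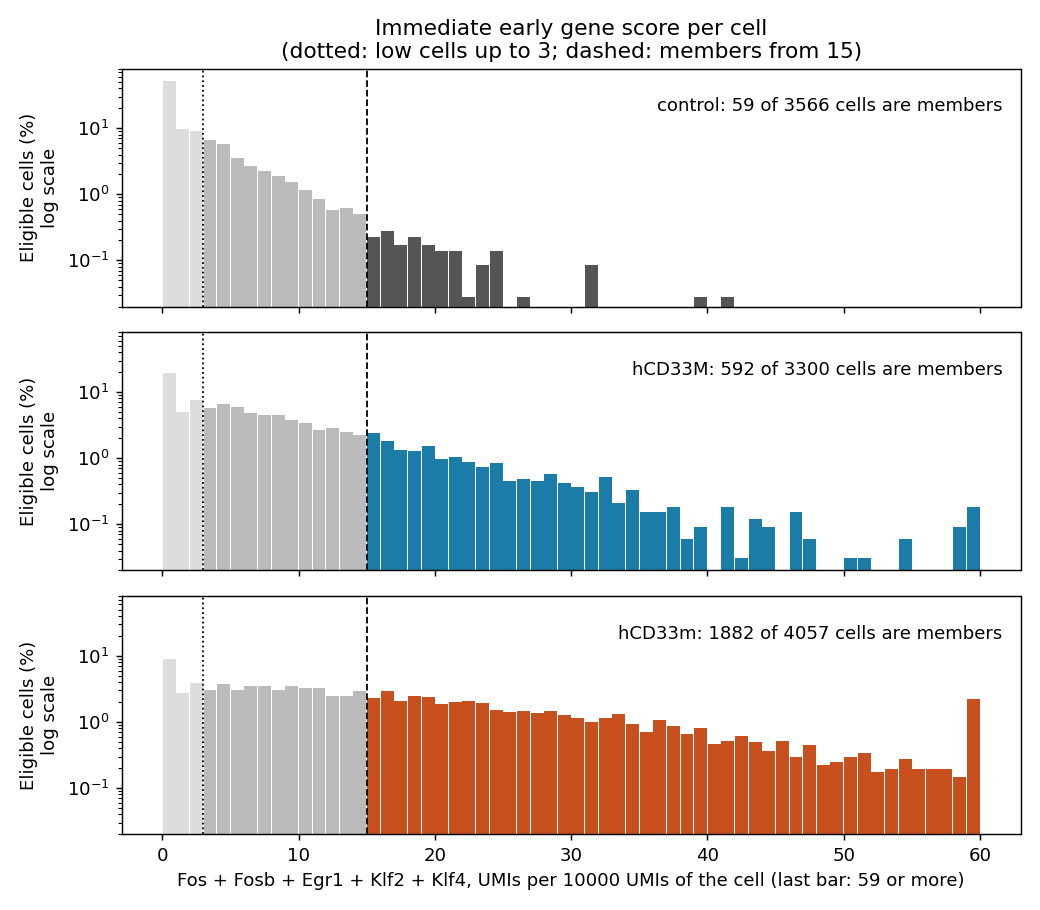
Distribution of the immediate early gene score in eligible cells of each library, with the score (UMIs of the 5 genes per 10000 UMIs of the cell) on the horizontal axis and the percent of eligible cells on a log scale on the vertical axis. The dotted line marks the limit of low cells at 3 and the dashed line the member threshold at 15, and the scores run on through that threshold without a gap in hCD33M and hCD33m, while the last bar pools scores of 59 or more. The coloured bars hold the 59, 592 and 1882 members and also 4, 22 and 14 cells with fewer than 5 UMIs of the 5 genes.

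The threshold cuts a continuous range of the score, so the members are the upper part of a scale, and the score alone says nothing of cell type. Just inside it, with scores under 16, lay 7, 74 and 91 members of control, hCD33M and hCD33m. Just outside, from 14 to under 15, lay 18, 74 and 118 cells. The members also differed in how far they went beyond the threshold. Control members had a median score of 19.3 and a highest of 41.6, hCD33M members 21.2 and 165, and hCD33m members 26.3 and 107. A score of 50 or more was reached by 0, 13 and 171 members.

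Depth was similar on both sides of the contrast. Members had median UMI counts of 4453 in control, 4949 in hCD33M and 5021 in hCD33m, against 5076, 4703 and 4700.5 in low cells, so control members were shallower than control low cells and the order was the reverse in the transgenic libraries. When each cell was thinned to 2000 UMIs and called at 3 or more rule-gene UMIs, the shares were 4.71%, 25% and 51.7%. The members summed to 252558 UMIs in control, 3106082 in hCD33M and 10546630 in hCD33m, so any control value of a rarely counted gene is far less precise. The libraries shared 4 to 12 barcodes pairwise, 1 of them a member in both libraries.

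Egr1 and Fos supplied most of the score. Egr1 made up 48.9% of the rule-gene UMIs of control members, with an interval from 44.5% to 53.4%. The Egr1 share of hCD33M members was 37.8% (36.6% to 38.9%) and that of hCD33m members 35.9% (35.4% to 36.5%). Fos gave 23.0%, 30.1% and 30.2% in the same order, Fosb 13.4%, 14.04% and 16.7%, Klf2 11%, 10.1% and 10.6%, and Klf4 3.73%, 7.95% and 6.64%. These shares come from the UMIs that chose the members, and the control values rest on 59 cells, with 19 Klf4 UMIs in 9 of them. Egr1 was the single highest of the 5 genes in 32 of 59 control members, 254 of 592 hCD33M members and 799 of 1882 hCD33m members, and Fos in 10, 162 and 552. The remaining members had Fosb, Klf2 or Klf4 highest, or a tie, which occurred in 9, 65 and 220 cells.

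In absolute level, Fos was at 463 CPM in control members, 693 in hCD33M and 872 in hCD33m, against 16.2, 27.2 and 21.2 CPM in low cells. Egr1 was at 986, 869 and 1040 CPM in members and at 26.6, 37.1 and 44.4 CPM in low cells. Both are a direct product of the rule. Most members carried several of the 5 genes at once: at least 1 UMI of Egr1 was found in 88.1% of control members, 88.9% of hCD33M members and 92.9% of hCD33m members, and of Fos in 62.7%, 84.3% and 87.2%. Klf4 was the least often found, in 15.3%, 31.4% and 36.9%. All 5 genes were detected in 2 of 59, 44 of 592 and 298 of 1882 members, and only 1 of them in 11, 23 and 59. After thinning to 2000 UMIs, all 5 were still detected in 1.69%, 0.338% and 3.40% of members, which is 1 cell in control and 2 cells in hCD33M, so no order between those libraries is read from it.

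Whether the 5 genes went together was examined by choosing cells with 4 of them and measuring the one left out. Every left-out gene was higher in the cells chosen by the others, in all 3 libraries. The 5 genes were chosen with earlier results of these data known, so their rising together is a description and no independent test. Fos was 4.23-fold higher in control (183 against 43.3 CPM), 3.44-fold in hCD33M (497 against 145 CPM) and 4.09-fold in hCD33m (809 against 198 CPM). The mean log2 ratio over the 3 libraries was 1.96 ± 0.16 (SD, n = 3 libraries) for Fos, 1.99 ± 0.27 for Fosb, 1.17 ± 0.14 for Egr1, 1.82 ± 0.36 for Klf2 and 2.46 ± 0.53 for Klf4. Egr1 had the smallest ratio of the 5 in every library, 2.19-fold in control, 2.52-fold in hCD33M and 2.08-fold in hCD33m, and Klf4 the largest in the transgenic libraries, 5.63-fold and 7.89-fold. The control Egr1 ratio rests on 18 UMIs in 15 cells (log2 1.13, interval 0.37 to 1.79). Its interval overlaps those of the other 4 genes, so their order in control is not resolved. In control the Klf4 ratio of 3.78-fold rests on 7 UMIs in the 55 cells high in the other 4 genes (log2 1.92, interval 0.57 to 3.01).

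**Figure D2:**
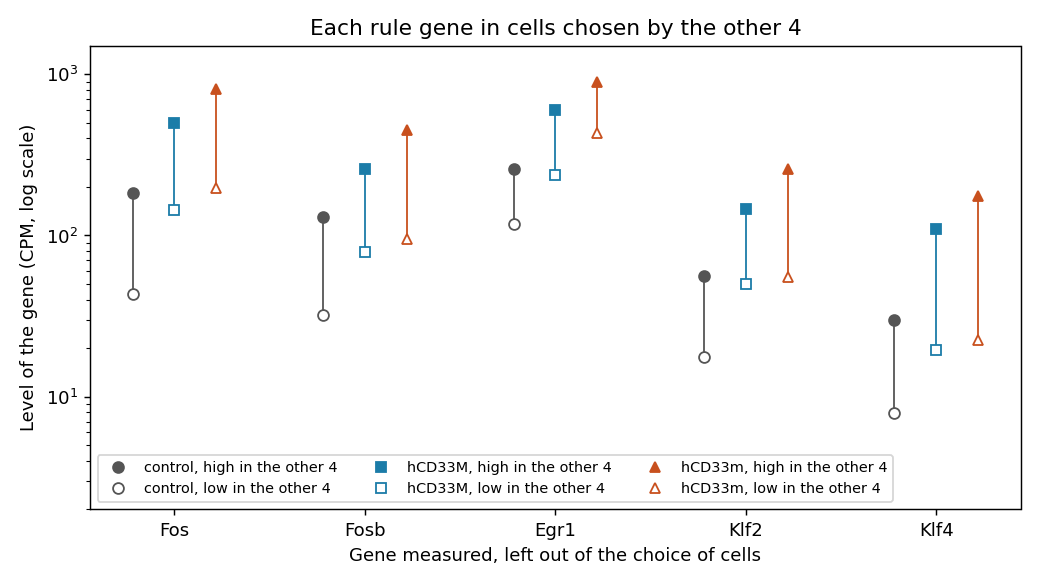
Level of each of the 5 genes (CPM, log scale) in cells chosen by the other 4 genes, as high (filled symbols) or low (open symbols), for each library. A line joins the pair of values of a library, and every filled symbol lies above its open symbol, with Fos at 183 against 43.3 CPM in control and 809 against 198 CPM in hCD33m.

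Beyond the 5 genes, few others differed between members and low cells. A gene was measured when it averaged at least 20 CPM over the 6 sums of members and low cells, which held for 6595 genes. It was called when members differed at least 1.5-fold from low cells in the same direction in all 3 libraries and each exact conditional binomial interval left out equality. There were 15 genes called higher (0.227% of the measured genes), of which 5 are the rule genes. None was called lower (0%), although 2, Mak16 and Mettl9, were lower at a 1.2-fold limit. The median of the mean log2 ratios over all measured genes was -0.01. The cells were chosen by a readout of this same contrast, so these counts describe the profile and nothing further is read from them. In single libraries 207 genes were called higher and 151 lower in control, against 41 and 20 in hCD33M and 52 and 6 in hCD33m, with the largest counts where the member sum was smallest.

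The 10 other genes were Jun, Jund, Dusp1, Ier2, Btg2, Rgs1, Tmx4, Emp3, Adamts1 and Cybb. Jun (chr4:95049034-95052222), the AP-1 partner of Fos proteins, was at 916 CPM in low cells and 1718 in members of control, 1409 and 2418 in hCD33M, and 1365 and 2991 in hCD33m. Low cells of both transgenic libraries already lay above control low cells, and members lay above low cells everywhere. The mean log2 ratio of members over low cells was 0.94 ± 0.18 (SD, n = 3 libraries). Jund (chr8:70698949-70700616), another AP-1 subunit, rose from 617 to 1124 CPM in control, from 760 to 1225 in hCD33M and from 729 to 1533 in hCD33m, a mean log2 ratio of 0.88 ± 0.19.

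Dusp1 (chr17:26505590-26562128) encodes a phosphatase that switches off MAP kinases. It was at 15.9 CPM in low cells and 55.4 in members of control, 42.0 and 103 in hCD33M, and 47.0 and 176 in hCD33m. The ratios were 3.49-fold, 2.46-fold and 3.75-fold, with a mean log2 ratio of 1.67 ± 0.32, and the control value rests on 14 UMIs. Ier2 (chr8:84661331-84662852), a nuclear immediate early protein, was at 29.5 and 83.1 CPM in low cells and members of control, 41.4 and 112 in hCD33M, and 59.4 and 185 in hCD33m. Its ratios, 2.82-fold, 2.71-fold and 3.11-fold, were the most even of the 15 genes across libraries, with a log2 SD of 0.10.

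Btg2 (chr1:134075170-134079120), an antiproliferative protein that recruits the mRNA deadenylation machinery, was at 631 and 1049 CPM in low cells and members of control, 952 and 1559 in hCD33M, and 928 and 1942 in hCD33m, a mean log2 ratio of 0.84 ± 0.20. Rgs1 (chr1:144242296-144249242), which shortens signalling by G protein-coupled receptors, was at 116 and 182, 207 and 342, and 153 and 352 CPM in the same order. Tmx4 (chr2:134594185-134644145), a thioredoxin-like membrane protein of the endoplasmic reticulum and no classical immediate early gene, was at 169 and 364, 209 and 370, and 231 and 449 CPM. Its member level differed less among the libraries than that of Jun or Btg2.

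Adamts1, a secreted metalloprotease, was at 12.7 and 35.6, 6.24 and 30.6, and 12.1 and 38.6 CPM, resting in control on 9 UMIs in 4 cells. Emp3, a tetraspan membrane protein, was at 45 and 107, 36.9 and 78.2, and 44.7 and 69.2 CPM.

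**Figure D3:**
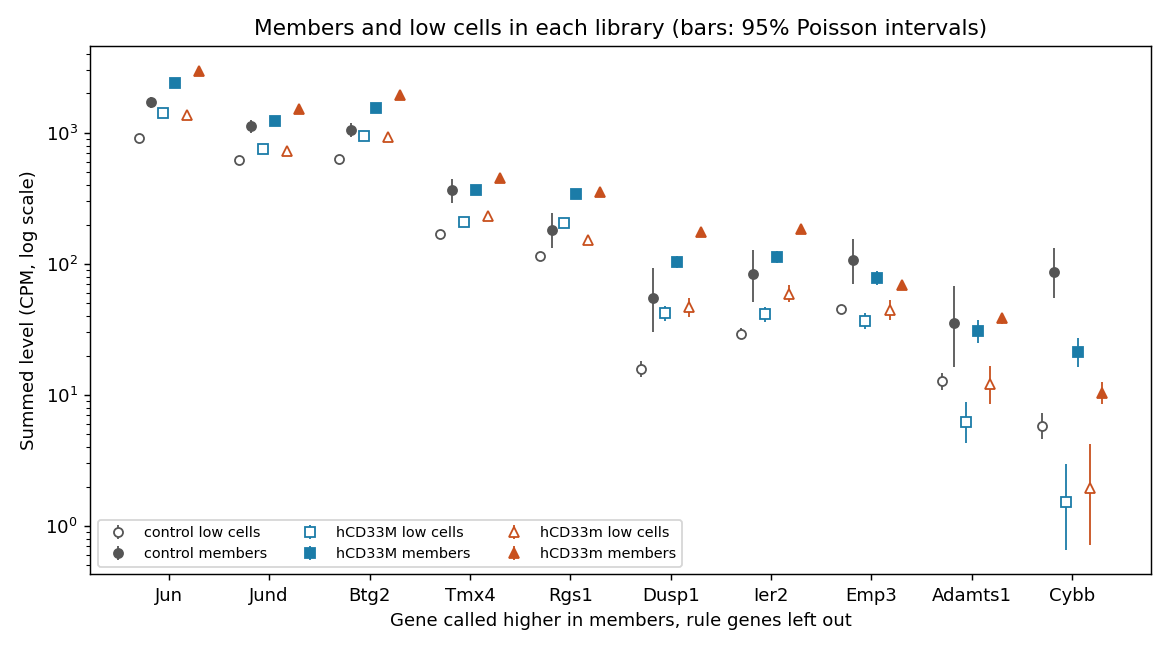
Summed level (CPM, log scale) of the 10 called genes other than the rule genes, in low cells (open symbols) and members (filled symbols) of each library, with 95% Poisson intervals as bars. Members lie above low cells of the same library for every gene, as for Jun at 1718 against 916 CPM in control, and among members the intervals are widest in control.

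Cybb, the catalytic subunit of the phagocyte NADPH oxidase, stood apart from the other 9. Its mean log2 ratio was 3.37 ± 0.84, but all 22 of its UMIs in control members came from 1 cell, and 58 of 66 in hCD33M and 90 of 109 in hCD33m came from 4 and 9 cells with at least 5 Cybb UMIs. Those 14 cells together held few microglial transcripts: P2ry12, Tmem119, Cx3cr1, Siglech and Sall1 summed to 15.2 per 10000 in the control cell, 2.44 to 8.07 in hCD33M and 2.18 to 26.2 in hCD33m, against medians of 104, 115 and 111 over all members. They held much of the macrophage and monocyte genes Lyz2 (32160, 22196 and 16594 CPM), Ifitm3 (6859, 2205 and 3011 CPM) and Ccr2 (1829, 501 and 769 CPM). Among low cells, 6 in control and none in the other libraries had 5 Cybb UMIs. Without cells of at least 5 Cybb or 100 Ttr UMIs, a choice made after seeing the data, 13 genes were called higher, and Cybb and Emp3 were the 2 no longer called. The other 8 and the rule genes kept their call.

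In the 2 transgenic libraries alone, which are better counted, 24 genes were called higher (0.364% of those measured) and 2 lower (0.0303%). The 9 added genes, named after their values were seen, were Junb, Ppp1r15a, Nfkbiz, Cd74, H2-Ab1, Hist1h2ap, D830025C05Rik, B930036N10Rik and Gm10762. Junb, a further AP-1 subunit, was at 513 and 845 CPM in low cells and members of hCD33M and 535 and 1121 in hCD33m. In control it was at 452 and 661 CPM, which is 1.46-fold and just short of the limit. Ppp1r15a, which restores translation after stress by directing a phosphatase to eIF2, was at 32.9 and 67.3 CPM in hCD33M and 43.0 and 90.9 in hCD33m. The antigen presentation genes Cd74 and H2-Ab1 were higher in members of both transgenic libraries, with Cd74 at 18.0 and 48.0 CPM in hCD33M and 52.5 and 147 in hCD33m, but lower in control members at 23.8 CPM against 41.5 in low cells. The 4 Cybb-rich members of hCD33M and the 9 of hCD33m held Cd74 at 4609 and 13583 CPM. Without them Cd74 in members was at 18.5 CPM in hCD33M, against 18.0 in low cells, and at 88.7 CPM in hCD33m, against 52.5, so the difference in hCD33M rested on 4 cells.

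The 2 genes called lower in the transgenic libraries were Ttr and Cst7. For Ttr, 1257 of 1264 UMIs in hCD33M low cells and 831 of 832 in hCD33m low cells came from 1 cell each. Cst7, a protease inhibitor raised in disease-associated microglia, was at 29.7 CPM in low cells and 10.3 in members of hCD33M (0.347-fold) and 46.6 and 20.01 in hCD33m (0.429-fold). In control it was at 22.4 and 11.9 CPM, the latter from 3 UMIs.

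Promoter sequences of the called genes were examined for motifs of factors known to act on immediate early genes, with the motifs chosen after the data were seen. RefSeq promoter sequences (GRCm38.p6, from 250 bases before to 50 bases after the start) matched 12 of the 15 genes, and Egr1, Ier2 and Rgs1 had no match. The letters TGACG, the core of the cyclic AMP response element (CRE), stood on either strand in all 4 matched rule genes, Fos, Fosb, Klf2 and Klf4. They stood in 20.8% of all 32851 promoters and in 33.8% of the 6772 promoters of measured genes. Among the other matched genes 3 of 8 had it, Adamts1, Btg2 and Dusp1. The full palindrome TGACGTCA, which contains TGACG on both strands, was found in Btg2 and Dusp1, in 1.79% of all promoters and in 3.31% of those of measured genes. The AP-1 motif TGANTCA was found in Cybb, in 7.81% of all promoters and in 4.64% of those of measured genes. The CArG box, the site of serum response factor, was found in no window of the 12 genes, in 1.63% of all promoters and in 1.17% of those of measured genes. Sites farther than 250 bases before the start, and any in the unmatched Egr1, could not be seen, so no lack of such sites is read from it. A match describes letters in a window and not a bound site.

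Below are the 250 bases before the start of 2 rule genes and of the 2 called genes with the full palindrome, 5′ to 3′ on the strand of the gene, with TGACG or TGACGTCA read on that strand in capitals. Fos lies at chr12:85473640-85473889 on the plus strand, Fosb at chr7:19310046-19310295, Dusp1 at chr17:26508473-26508722 and Btg2 at chr1:134079156-134079405 on the minus strand. These are RefSeq starts, and that of Dusp1 lies inside the longer GENCODE span given above, chr17:26505590-26562128, and not at its end.
Fos: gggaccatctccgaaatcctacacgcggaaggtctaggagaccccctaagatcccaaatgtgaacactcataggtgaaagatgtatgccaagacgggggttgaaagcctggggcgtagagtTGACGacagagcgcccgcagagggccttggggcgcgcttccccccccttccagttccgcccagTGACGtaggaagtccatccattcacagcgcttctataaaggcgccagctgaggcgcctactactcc
Fosb: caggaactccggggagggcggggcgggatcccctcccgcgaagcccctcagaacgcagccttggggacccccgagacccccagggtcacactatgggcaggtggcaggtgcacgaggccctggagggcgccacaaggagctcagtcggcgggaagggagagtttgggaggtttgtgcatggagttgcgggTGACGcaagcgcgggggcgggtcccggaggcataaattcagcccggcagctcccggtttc
Dusp1: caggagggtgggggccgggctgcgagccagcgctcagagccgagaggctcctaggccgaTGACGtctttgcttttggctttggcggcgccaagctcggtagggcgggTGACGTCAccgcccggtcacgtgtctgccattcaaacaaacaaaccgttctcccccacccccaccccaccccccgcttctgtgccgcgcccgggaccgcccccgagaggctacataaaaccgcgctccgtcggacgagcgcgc
Btg2: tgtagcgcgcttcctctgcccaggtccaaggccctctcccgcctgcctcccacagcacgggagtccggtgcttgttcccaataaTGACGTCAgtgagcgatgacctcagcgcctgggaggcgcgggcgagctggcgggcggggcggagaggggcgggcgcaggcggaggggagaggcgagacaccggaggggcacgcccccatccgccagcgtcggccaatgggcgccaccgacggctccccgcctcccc
In Fos the element nearest the start begins 66 bases before it, and in Fosb 60 bases before it. In Dusp1 and Btg2 the palindrome begins 143 and 166 bases before the start.

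Jun was higher at every step of the score in all 3 libraries. In hCD33m it was at 1253 CPM in cells with a score of 0, at 1986 from over 6 to 10, and at 3366 at 25 or more. In hCD33M the same bins held 1306, 1898 and 2834 CPM. In control it was at 871 CPM for a score of 0, at 1330 from over 6 to 10 and at 1718 from 15 to under 25, with only 6 cells beyond. Cells with no UMI of the 5 genes thus already held more Jun in both transgenic libraries than in control. Dusp1 was at 14.1 CPM for a score of 0 and 45.9 at 15 to under 25 in control, at 35.4 and 92.5 in hCD33M and at 34.6 and 135 in hCD33m. Btg2 did not follow every step, since in control it stood at 1047 CPM from over 10 to under 15 and at 984 from 15 to under 25. Tmx4 differed little over the lower bins of hCD33M, at 215 CPM for a score of 0 and 227 for over 3 to 6, and reached 415 CPM at 25 or more. The purinergic receptor P2ry12, a mark of resting microglia, was at 3598 and 3521 CPM in the end bins of hCD33M, and in control at 3579 CPM for a score of 0 and 3160 at 15 to under 25.

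**Figure D4:**
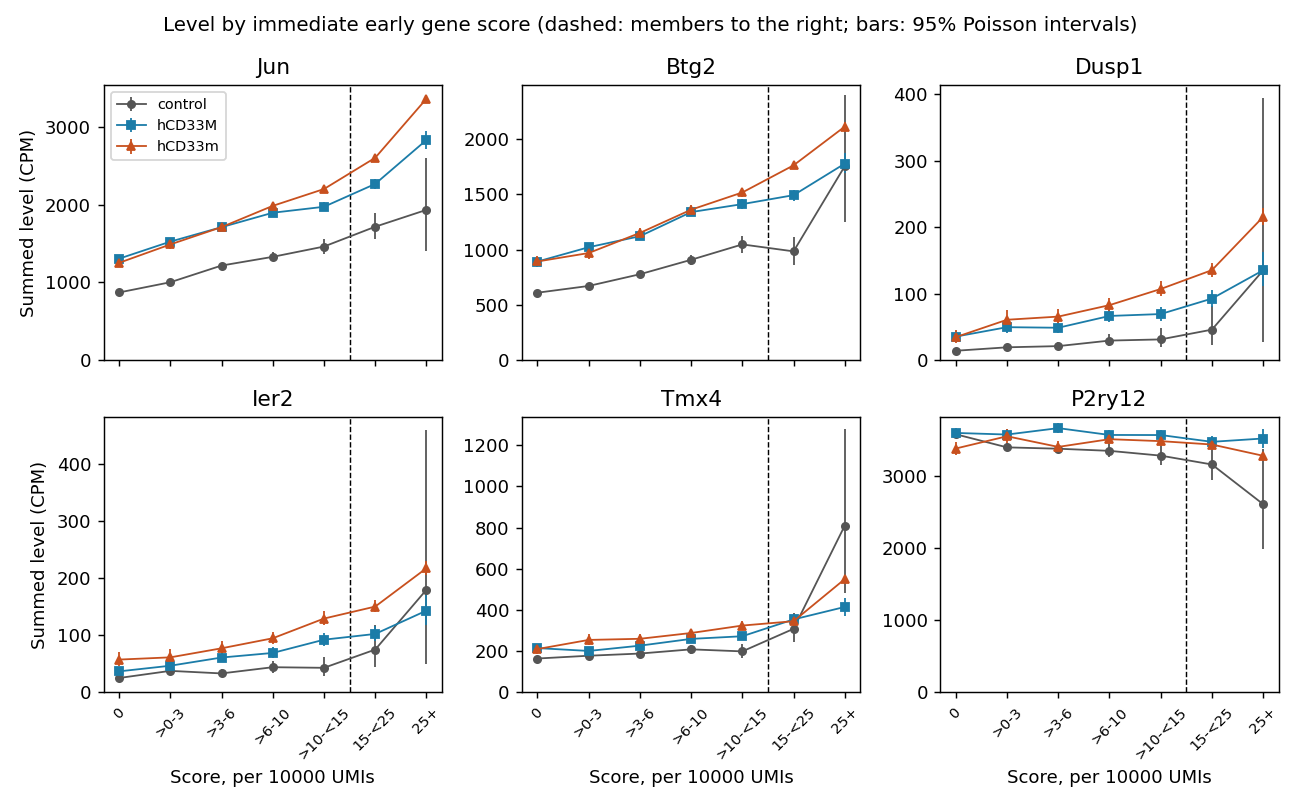
Summed level (CPM) of Jun, Btg2, Dusp1, Ier2, Tmx4 and P2ry12 in 7 bins of the score in each library, with 95% Poisson intervals as bars and the member threshold as a dashed line. Jun in hCD33m goes from 1253 CPM at a score of 0 to 3366 at 25 or more, and the control curves of Jun and Btg2 run below both transgenic curves over the bins up to a score of 25.

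Members were also split by which of the 5 genes was highest. This split uses the same counts that chose the members, so the values are a description. In hCD33m, 552 Fos-highest members held Dusp1 at 197 CPM (Poisson interval 182 to 213) and Tmx4 at 486 CPM (462 to 512), against 144 CPM (133 to 155) and 401 CPM (383 to 420) in 799 Egr1-highest members. In hCD33M the values pointed the same way, with Dusp1 at 116 CPM (94.3 to 142) in 162 Fos-highest and 99.1 CPM (83.1 to 117) in 254 Egr1-highest members, but the intervals overlap. The Fos-highest members also had the higher median score, 30.0 against 23.8 in hCD33m and 22.4 against 20.8 in hCD33M. Dusp1 and Tmx4 were themselves higher at high scores, and the classes were not matched for score, so no difference between classes is read from these values. Klf2-highest members of hCD33m, 110 cells, held P2ry12 at 2448 CPM, the lowest of the 5 classes, and the 40 of hCD33M at 2780 CPM, again the lowest. The Cybb-rich members with few microglial transcripts were not left out of these classes, and how many fell in each was not examined.

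Among 6 measured members of 12 further AP-1 genes, 2 were called higher (Jun and Jund) and none lower, with a median mean log2 ratio of 0.42 beside -0.01 over all measured genes. Over all 6595 measured genes, 0.227% were called higher and 0% lower, so no call in a short list is what that share gives. The lists were drawn up with earlier results of these data known. Of 9 measured mRNA decay genes 1 was called (Btg2), with a median of 0.19. Its relative Btg1 had a mean log2 ratio of 0.38 ± 0.15, and the AU-rich element binding proteins Zfp36l1 and Zfp36 had 0.53 ± 0.16 and 0.57 ± 0.49. For Zfp36 the libraries differed: it was at 143 CPM in low cells and 150 in members of control, at 205 and 303 in hCD33M and at 223 and 466 in hCD33m. Of 6 measured MAP kinase feedback genes 1 was called (Dusp1), with a median of 0.14, and the ERK phosphatase Dusp6 had 0.26 ± 0.05. Of 16 other immediate early response genes 2 were called (Ier2 and Rgs1), with a median of 0.23. Of 5 measured Kruppel-like factors outside the rule none was called, with a median of 0.30 and Klf6 at 0.62 ± 0.27. Of 8 measured NF-kB feedback genes none was called, with a median of 0.13. Only 2 of the further Egr and Nr4a genes were measured, Nab1 and Nab2, corepressors of Egr proteins, and neither was called (median 0.50). Nab2 had log2 ratios of 1.58 in control, -0.19 in hCD33M and 0.85 in hCD33m, so its direction differed between libraries. Nr4a1, looked at after its values were seen, was below the 20 CPM limit, and 10 of its 12 UMIs in control members came from 1 cell.

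Of 22 homeostatic microglial genes, all measured, none was called, and the median was -0.07. Over all measured genes only 0.227% were called higher and 0% lower, so nothing is read from the absence of calls in the lists that follow. The mean log2 ratios of the homeostatic genes ran from -0.34 to 0.04. Their sum was slightly lower in members of each library, at 99233 against 110790 CPM in low cells of control. In hCD33M it was at 103702 against 108164 CPM, and in hCD33m at 103886 against 109511 CPM. Fcrls, a microglial Fc receptor-like protein, was at -0.31 ± 0.12. Crybb1 was at -0.34 ± 0.42, through control alone (-0.83 against -0.09 in each transgenic library). P2ry12 was at 3518 and 3144 CPM in low cells and members of control, 3587 and 3475 in hCD33M, and 3462 and 3357 in hCD33m. Of 14 microglial identity transcription factors, all measured, none was called (median -0.02). Of 9 measured heat shock chaperones none was called (median -0.07), nor any of 7 chemokines and cytokines (-0.08), 4 interferon-stimulated genes (0.03), 13 disease-associated microglial genes (-0.09), 13 glycolysis genes (-0.14), 11 complement and Fc receptor genes (-0.05) or 11 phagocytosis genes (-0.01). The 80 cytoplasmic ribosomal protein genes had a median of 0.03 and the 12 mitochondrially encoded genes -0.03, with none called in either. The same held for 15 actin and cytoskeletal genes (-0.06), 6 glucocorticoid and clock genes (0.02), 3 cell cycle genes (0.11), 6 nuclear noncoding RNAs (0.25) and the cold-inducible pair Rbm3 and Cirbp (-0.03).

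**Figure D5:**
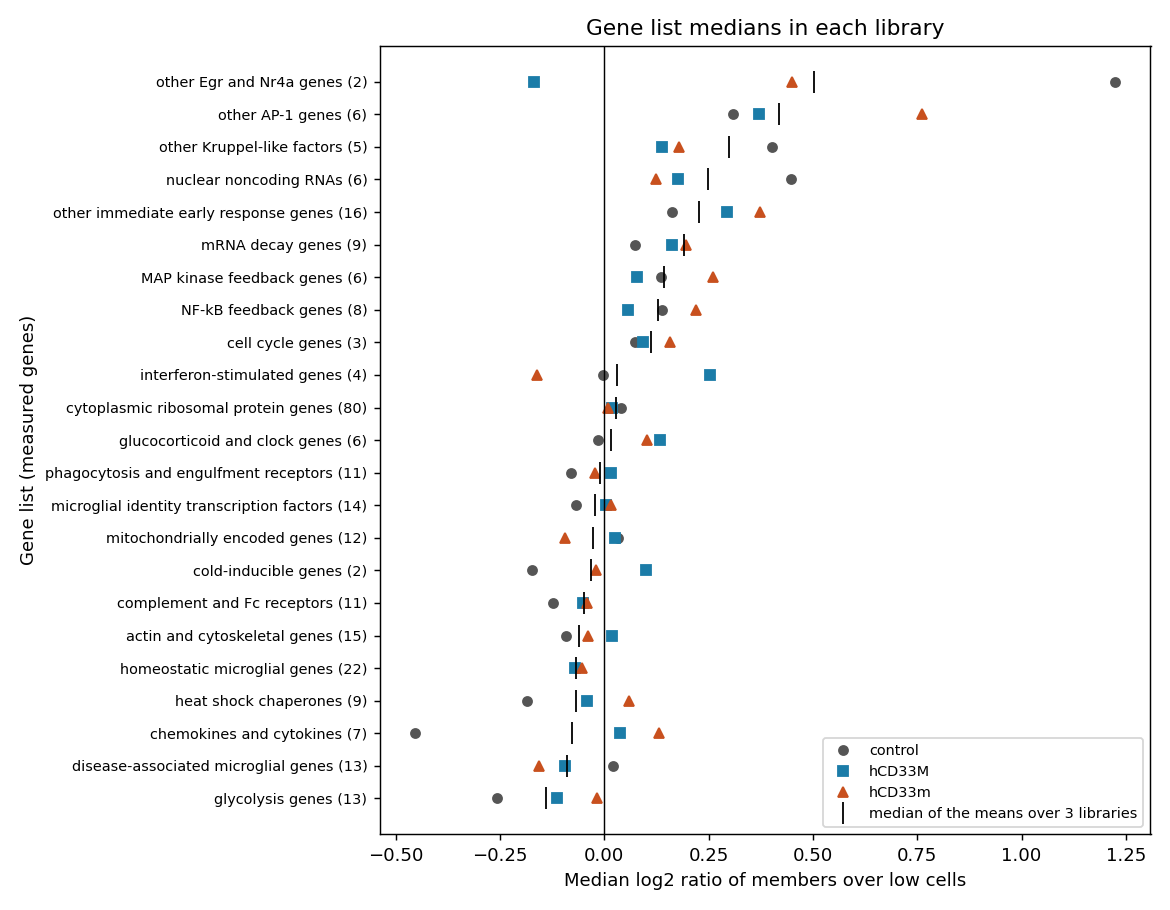
Median log2 ratio of members over low cells (horizontal axis) for each gene list (vertical axis, with the number of measured genes), for each library and for the mean over the 3 libraries. Further AP-1 genes lie at 0.42 and homeostatic microglial genes at -0.07 for the mean, and the list of Egr and Nr4a genes, with 2 measured, spans the widest range between libraries.

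The members carried the markers of microglia. Members of control, hCD33M and hCD33m held the fractalkine receptor gene Cx3cr1 at 3409, 3746 and 3569 CPM and Tmem119 at 1528, 1647 and 1532 CPM, which is 0.966 to 1.06 times the level in low cells. Not every microglial marker was so level. Fcrls was at 1631, 1865 and 1625 CPM in members against 2227, 2266 and 1875 in low cells. P2ry12 was at 3144, 3475 and 3357 CPM against 3518, 3587 and 3462. Endothelial cells also use Fos, Klf2 and Klf4, and the 5 of their 8 listed markers that the files hold summed to 455, 521 and 510 CPM in members against 597, 573 and 548 in low cells. Most of that sum was Bsg, which microglia express too. The 7 monocyte markers summed to 131, 19.3 and 31.3 CPM in members against 10.8, 9.27 and 14.4 in low cells. At least 3 of their UMIs were held by 1, 3 and 15 members, and Ly6c2 and Chil3 were at 0 in all 6 sums. Border macrophage markers summed to 3.96, 5.80 and 6.73 CPM in members and 10.7, 12.7 and 13.04 in low cells, and the rule itself limits 5 of these 7 genes. Neuron, pericyte, neutrophil, T cell and erythrocyte markers summed to at most 11.9 CPM in members of any library. Oligodendrocyte markers were at 102 to 103 CPM in members and 103 to 106 in low cells, astrocyte markers, almost all Slc1a3, at 194 to 245 and 203 to 233, and B cell markers, mostly Ighm, at 249 to 353 and 280 to 342.

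Members of the libraries were then set side by side. Between hCD33m and hCD33M members, 34 genes were called higher (0.516%) and 21 lower (0.318%) by the same 1.5-fold rule. In cells of 4000 to under 6000 UMIs the counts were 101 and 83. Against control members, hCD33M had 173 genes higher (2.62%) and 185 lower (2.81%), and hCD33m 199 higher (3.02%) and 220 lower (3.34%). With TMM scaling these counts were 225 and 162 for hCD33M and 256 and 171 for hCD33m, so the split between higher and lower depends on the scaling. The control sum held only 59 cells. Among low cells, where control was deepest, the counts were 35 and 34 for hCD33M and 43 and 36 for hCD33m. Both of these comparisons share the control cells.

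Among the genes called between the transgenic libraries, Dusp1 was at 176 CPM in hCD33m and 103 in hCD33M members (1.70-fold, log2 0.77, interval 0.60 to 0.94), Ier2 at 185 and 112 CPM (1.64-fold, 0.55 to 0.88 on the log2 scale), and Zfp36 at 466 and 303 CPM (1.54-fold). The members compared were not matched for score, whose median was 26.3 in hCD33m and 21.2 in hCD33M. At a score of 15 to under 25, Dusp1 was at 135 CPM in hCD33m and 92.5 in hCD33M. Jun, at 2991 and 2418 CPM, differed 1.24-fold (log2 0.31, interval 0.27 to 0.34), and Rgs1, at 352 and 342 CPM, had an interval of -0.06 to 0.14 that includes equality. Rbm3, a cold-inducible RNA-binding protein, was 2.23-fold higher in hCD33m members and stood at 174 against 73.8 CPM in low cells, so this difference was as large outside the members.

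Part of the difference between libraries in these genes lay outside the members. Over low cells, the ratio of hCD33M to control for Jun was 1.54 (log2 0.62, interval 0.58 to 0.66) and that of hCD33m to control 1.49 (log2 0.58, 0.52 to 0.63). Over all eligible cells the ratios were 1.76-fold and 2.31-fold. Dusp1 was 2.64-fold and 2.96-fold higher in low cells, and 3.31-fold and 6.53-fold higher over all eligible cells. Zfp36l1 was 1.59-fold and 1.41-fold higher in low cells. For the constitutive chaperone Hspa8 the low cell ratios to control were 1.93 in hCD33M and 1.35 in hCD33m, in the opposite order to the member shares. Its level in members was 0.879, 0.945 and 1.03 times that in low cells of control, hCD33M and hCD33m.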

How the data were processed

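Microglia of 1 control, 1 hCD33M and 1 hCD33m library were analysed from raw UMI counts. The authors counted UMIs per gene and cell with Cell Ranger on mm10 and imported the counts into Seurat, and the deposited counts were neither normalized nor corrected. The annotation release is not given in the sources used here. Per the files, every barcode held at least 229 genes and every gene was found in at least 3 cells of its library, so a count of 0 may reflect that filter. The 3 libraries held 32272657, 36413491 and 40629705 UMIs. Here UMIs were summed over members and over low cells of each library and scaled to CPM, and the ratio used a floor of 3 counts where a sum was 0. Intervals were exact Poisson for levels, conditional binomial for ratios and Clopper-Pearson for shares, at 95%. No doublet caller was run, and doublets were limited only by the bounds on genes and UMIs. The members, gene lists and tests were chosen with earlier results of these data known. Genes named in the text were the rule genes, up to 12 called genes in each direction with the largest mean log2 ratio, up to 4 genes per list with the largest ratios, and cell type markers. Ttr, Cd74, H2-Ab1, Nr4a1 and other genes called only in the transgenic libraries or at other limits were named after their values were seen. Gene positions are those of GENCODE M21 on mm10. The procedure was checked on simulated data, with gene sums drawn as Poisson counts at the rates of low cells. These sums held no spread between cells and no choice of members by score, so calls resting on few cells were not checked. Python 3.11.15, numpy 2.4.6, scipy 1.17.1, pandas 2.3.3, matplotlib 3.10.9 and, for TMM scaling, edgeR 4.0.16 under R 4.3.3 were used.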

Additional observations from a re-analysis of the deposited data

How the results depend on the processing

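Member shares depended on the threshold. At 10 per 10000 they were 4.21% in control, 28.9% in hCD33M and 58.5% in hCD33m, at 20 per 10000 0.701%, 10.2% and 34.6%, and in cells thinned to 2000 UMIs 4.71%, 25% and 51.7%, with the order of the libraries unchanged in these. A 5% mitochondrial limit, no limit on Ccl3 and Ccl4, or leaving out cells rich in Cybb or Ttr kept each share within its interval. In place of 15 genes called higher, there were 26 at 1.2-fold, 9 at 2-fold (without Btg2, Emp3, Jun, Jund, Rgs1 and Tmx4) and 30 with no minimum level. Leaving out 1 library in turn gave 15 to 24 higher and 0 to 2 lower, with 24 without either control or hCD33M. Genes called lower numbered 2 at 1.2-fold and 2 with a mean over cells, where they were Cst7 and Ttr. TMM scaling, a denominator without rule and mitochondrial genes, depth weighting, a minimum of 50 CPM, a member threshold of 20, low cells with a sum of 0 and cells of 4000 to under 6000 UMIs gave 13 to 19 higher genes and 0 lower. Emp3 was lost under depth weighting, Adamts1 at a minimum of 50 CPM and at a member threshold of 20, Rgs1 with a mean over cells, and Cybb with a mean over cells, at a minimum of 50 CPM and in cells of 4000 to under 6000 UMIs. Between libraries, low cells in place of members gave 35 higher and 34 lower for hCD33M over control, 43 and 36 for hCD33m over control, and 39 lower for hCD33m over hCD33M. In cells of 4000 to under 6000 UMIs hCD33m over hCD33M members gave 101 higher and 83 lower. The causes of these shifts were not tested. Of the list medians and gene ratios under the alternatives, 18 of 268 and 25 of 357 moved by more than 1 SD over the libraries, and none of the 15 genes called in all 3 libraries changed direction. Of the genes called in the transgenic libraries alone, the mean log2 ratio over the 3 libraries crossed 0 for Cd74 (-0.37 to 1.45), H2-Ab1 (-0.10 to 0.99) and B930036N10Rik (-0.17 to 0.69). No paired analysis was possible because each genotype is 1 library. Control members, at 252558 UMIs in all, limit every value that rests on them.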
